A study of Mus musculus with 9 samples.

Results

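The cytosolic ribosomal protein genes code for the proteins of the ribosome outside mitochondria, and their RNA was described in 9 mouse breast tumours. They were taken from the table of raw counts as rows whose Ensembl identifier belongs to a protein-coding gene with a symbol of the Rpl or Rps type, with Rplp0, Rplp1, Rplp2 and Rpsa and without the Rps6k kinases and names with -ps. This gave 86 genes of 49585, of which 85 of 19606 passed the filter on low counts. Rpl10l did not, with counts in AAV-delta-mut-p53 6 only. The rule also took in Rps19bp1 and Rpl7l1, which are named after ribosomal proteins but are not subunits of the ribosome, and the retrocopy Rps27rt.

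The large ribosomal subunit holds the Rpl proteins and joins amino acids, and the small subunit holds the Rps proteins and reads the messenger RNA. Growing cells make these proteins in nearly equal numbers, and much of that balance is set after transcription. Their messenger RNAs start with a pyrimidine tract (a 5′ TOP element), through which mTOR signalling regulates their translation as a class. Rpl5 and Rpl11 also bind MDM2 when ribosome assembly is disturbed, which links the ribosome to p53.

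The tumours arose spontaneously in mice labelled K14-Cre, Trp53 wm-R172H/fl and Rosa26 LSL Cas9-P2A-EGFP/+, a genotype that all 9 samples share. K14-Cre is driven by a keratin 14 promoter of basal epithelium, R172H is a missense mutation that disturbs the fold of the domain with which p53 binds DNA, and wm is not spelled out. Tumours were given adeno-associated virus (AAV) on days 0, 3 and 8 and were taken when the animal met the criteria for euthanasia: 6 received AAV-delta-mut-p53, a vector meant to delete mutant p53, and 3 received AAV-Control. Total RNA of whole frozen tumours was sequenced, so fewer cells of a type and less RNA per cell cannot be told apart. Totals ran from 18581545 to 24567423 counts in the AAV-delta-mut-p53 tumours and from 26280250 to 30953250 in the AAV-Control tumours. Of these, the members held 452924 to 904626 counts in AAV-delta-mut-p53 tumours and 821462 to 937373 in AAV-Control tumours. All 7 luminal and 6 basal mammary markers were detected in every tumour. AAV-delta-mut-p53 2 stands apart: its 10 skeletal muscle markers summed to 43790 CPM (a gene's share of the counts of its tumour, TMM-scaled), against 43.9 to 439 CPM in the other tumours of its group and 52.7 to 166 CPM in the AAV-Control tumours, and its luminal markers summed to 200.2 CPM, the lowest of the 9. Its fibroblast (16620 CPM), leukocyte (2513 CPM) and adipocyte (468 CPM) markers were the highest of the 9, against at most 7174, 888 and 152 CPM elsewhere, and its proliferation markers were the lowest, at 659 CPM. Nothing says that the samples are from separate animals, and the titles of AAV-delta-mut-p53 4 and 5 share a number, so p-values measure the spread between these samples.

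Of the members, 66 have an entry in the RefSeq promoter table for GRCm38.p6, with 78 promoters in all. The windows below run from 25 bases before to 25 bases after the annotated start, on the coding strand, and capitals mark a run of pyrimidines that begins with C and is at least 8 bases long. The first 5 belong to members whose levels carry the results below, and the next 3 are abundant or strongly varying members without such a run in this window. Rpl35a also has other annotated starts, not shown, whose windows hold no such run.
Rpl38, chr11:114668555-114668604 (+): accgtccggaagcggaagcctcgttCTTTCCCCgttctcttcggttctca
Rps25, chr9:44407689-44407738 (+): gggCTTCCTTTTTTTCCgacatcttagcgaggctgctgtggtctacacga
Rplp2, chr7:141447626-141447675 (+): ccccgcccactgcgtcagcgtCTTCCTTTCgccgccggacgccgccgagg
Rpl13a, chr7:45128721-45128770 (-): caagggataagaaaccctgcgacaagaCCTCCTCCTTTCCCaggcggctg
Rpl35a, chr16:33056457-33056506 (+): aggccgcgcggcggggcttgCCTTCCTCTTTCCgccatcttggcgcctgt
Rplp0, chr5:115559442-115559491 (+): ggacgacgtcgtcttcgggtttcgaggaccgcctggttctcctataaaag
Rps3, chr7:99483685-99483734 (-): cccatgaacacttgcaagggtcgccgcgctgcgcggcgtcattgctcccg
Rps16, chr7:28350664-28350713 (+): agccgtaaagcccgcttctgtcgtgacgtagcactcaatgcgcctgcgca

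Such a run was found in 43.6% of the 78 promoters of members and in 15.5% of all 32851 promoters of the table. The letters CCGGAAG, a core of the sites bound by ETS factors, were found on either strand of the 300-base promoters in 34.6% of member promoters and 8.86% of all promoters. The letters AAGATGGC, a core of the YY1 site, were found in 10.3% of member promoters and 2.75% of all promoters. The reverse complement of the first motif, CTTCCGG, can overlap the end of a pyrimidine run. The members that stand out in the tumours include Rpl13a and Rplp2, with a run in this window, and Rps3 and Rps16, without one there. A run further from the annotated start would not be seen, so a window without one does not show that the messenger RNA lacks it.

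As a set the members did not separate the groups. In the AAV-delta-mut-p53 tumours 1 to 6 the members summed to 3.05%, 2.06%, 2.94%, 4.87%, 2.95% and 2.68% of all counts, and in AAV-Control 1 to 3 to 3.48%, 2.83% and 3.13%. The highest and the lowest of the 9 shares both came from AAV-delta-mut-p53 tumours, so that the groups overlapped. The mean share was 3.09% ± 0.943 (SD, n = 6) after AAV-delta-mut-p53 and 3.14% ± 0.325 (SD, n = 3) after AAV-Control, a difference of -0.0537 percentage points that is smaller than either SD. Without AAV-delta-mut-p53 4 the difference was -0.409 percentage points, and without AAV-delta-mut-p53 2 it was 0.153. The Rpl genes summed to 1.25 ± 0.193 times the Rps genes in AAV-delta-mut-p53 tumours (SD, n = 6) and 1.19 ± 0.0730 times in AAV-Control tumours (SD, n = 3). That ratio was lowest in AAV-delta-mut-p53 4, at 1.02, and highest in AAV-delta-mut-p53 3, at 1.49.

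Gene by gene the result was the same. With edgeR's quasi-likelihood test and Benjamini-Hochberg adjustment over all genes tested, 0 of 85 members passed a false discovery rate (FDR) of 0.05, beside 0 of 19606 genes, a background of 0.0%. At an unadjusted p under 0.05, 1 member was lower after AAV-delta-mut-p53 (1.18%, beside 3.26% of all genes) and 1 was higher (1.18%, beside 3.82% of all genes). These were Rpl21 and Rpl3l. DESeq2 called 1 member lower at the same FDR, Rpl21, beside 45 genes lower (0.23%) and 60 higher (0.306%) over the whole table. Limma voom with quality weights called 0 members and 0 genes. The log2 fold change of AAV-delta-mut-p53 over AAV-Control was below 0 for 36 members (42.4%, beside 44.4% of all genes) and above 0 for 49 (57.6%, beside 55.6%). Its median was 0.07 over the members, with quartiles of -0.13 and 0.26, and 0.09 over all genes tested. The median was 0.07 for the 51 Rpl genes and 0.10 for the 34 Rps genes, and the smallest unadjusted p of any Rps gene in edgeR's test was 0.115, for Rps4x. Without AAV-delta-mut-p53 4 the median over members was -0.12, and 53 members were below 0.

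**Figure D1:**
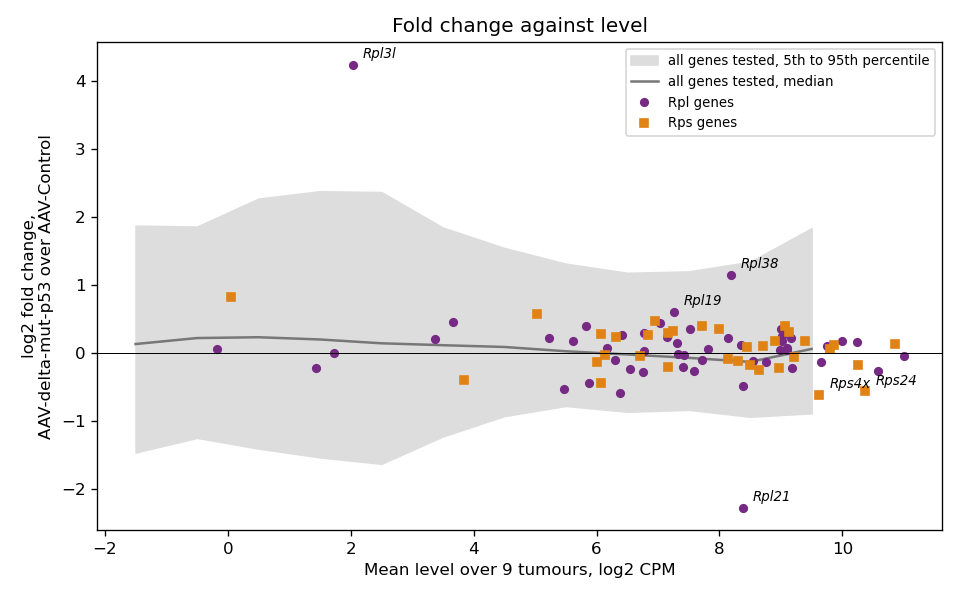
Log2 fold change of AAV-delta-mut-p53 over AAV-Control (vertical axis) against the mean level over the 9 tumours (log2 CPM, horizontal axis) for 51 Rpl genes (circles) and 34 Rps genes (squares); the grey band holds the 5th to 95th percentile of all genes tested in steps of level. Rpl21 at -2.27 lies below the band and Rpl3l at 4.24 above it, while the quartiles of the members are -0.13 and 0.26.

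Rpl21, a protein of the large subunit, had the largest difference between the groups that did not rest on a single tumour. Its gene lies at chr5:146832890-146837032 on the plus strand (GRCm38, GENCODE release 21 annotation). It had 257, 243, 84.6, 92.3, 112 and 91.0 CPM in AAV-delta-mut-p53 1 to 6, against 737, 558 and 830.5 CPM in AAV-Control 1 to 3. Every AAV-delta-mut-p53 tumour was below every AAV-Control tumour, which held for 1 of 85 members (1.18%) and for 1.59% of all genes tested. The log2 fold change was -2.27 (SE 0.42, edgeR quasi-likelihood test, unadjusted p = 0.00026, FDR = 0.677). In order of p it stood at place 4 of the 19606 genes tested. DESeq2 gave an FDR of 0.00303 for the same gene, and limma voom gave 0.0761. With log2(CPM + 1) and all 84 ways to assign the labels, an exact 2-sided permutation test gave p = 0.0119, the smallest that 3 against 6 tumours allow. Rpl21 was chosen with this difference known, and groups that do not overlap give that p by construction, so it is a description.

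The place of Rpl21 among the other members of the same tumour also differed between the groups, a measure that library scaling does not touch. Its log2 CPM minus the median of the members was 0.41, 0.73, -1.19, -1.74, -0.73 and -1.10 in AAV-delta-mut-p53 1 to 6 and 1.71, 1.60 and 2.35 in AAV-Control 1 to 3. The groups did not overlap, and the difference of means was -2.49, which describes the same separation and adds no test. Leaving out each tumour in turn kept this difference between -2.75 and -2.26. AAV-delta-mut-p53 1 and 2 lay between the other 4 tumours of their group and the AAV-Control tumours.

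The counts of Rpl21 depend on how reads with more than 1 possible origin were treated, and the sources used here do not give it. All 431 words of 50 bases in its 480 coding bases occur in a transcript of at least 1 other annotated gene, with a median of 21 other genes a word. Over the whole reference transcript of 1856 bases the share is 26.2%, and 81 of the 82 genes that share a word are pseudogenes. The first sequence below is the coding stretch found in most other genes, 44, and the second is a coding stretch found in 1 other gene only. They are from the GENCODE release 21 transcript, and positions count from 1 at the first base of the start codon.
Rpl21 coding bases 96 to 145: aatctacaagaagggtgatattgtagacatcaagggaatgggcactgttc
Rpl21 coding bases 300 to 349: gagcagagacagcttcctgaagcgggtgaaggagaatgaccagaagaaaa

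The 14 rows named as Rpl21 pseudogenes held few counts. Together they had 2.52, 2.50, 2.15, 2.18, 2.43 and 2.28 CPM in AAV-delta-mut-p53 1 to 6 and 1.62, 2.04 and 1.35 CPM in AAV-Control 1 to 3. The sums were higher after AAV-delta-mut-p53 than after AAV-Control. Within the AAV-delta-mut-p53 group they were highest in tumours 1 and 2, where Rpl21 was highest too. They came to 39 to 56 counts in AAV-delta-mut-p53 tumours and 34 to 61 in AAV-Control tumours. Adding them to Rpl21 left a log2 difference of -2.39. Pseudogenes without an Rpl21 name were not added.

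Most genes around Rpl21 differed less. Over the 20 nearest protein-coding genes that averaged 5 CPM or more, 10 on each side and up to 1647 kb away, the median log2 fold change was -0.21, and the values ran from -2.92 to 1.78. The lowest was Cyp3a57, a cytochrome P450 gene, whose error was large (SE 1.82, edgeR quasi-likelihood test, unadjusted p = 0.138) and whose groups overlapped. In 2 of them, every AAV-delta-mut-p53 tumour was below every AAV-Control tumour. Polr1d, a subunit shared by RNA polymerases I and III, lies 259 kb from Rpl21 and had 43.9, 38.7, 42.6, 31.1, 28.1 and 25.9 CPM in AAV-delta-mut-p53 1 to 6, against 55.1, 59.0 and 45.0 CPM in AAV-Control 1 to 3. The groups are close at their edges, and the log2 fold change was -0.60 (SE 0.27, edgeR quasi-likelihood test, FDR = 0.677). Pomp, a proteasome assembly factor 1034 kb away, had a log2 fold change of -0.59 (SE 0.27).

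**Figure D2:**
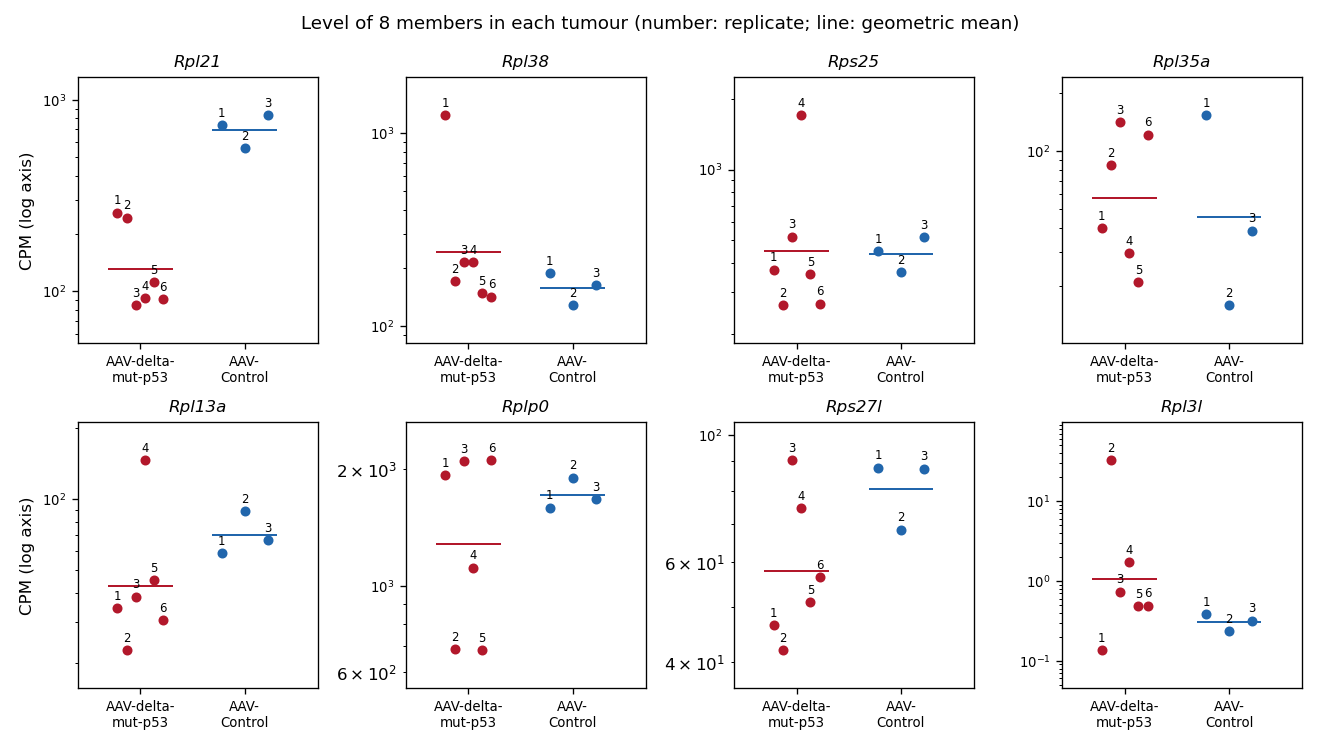
Level of 8 members in CPM (log axes that differ between panels) in each AAV-delta-mut-p53 tumour (left in each panel) and AAV-Control tumour (right), with replicate numbers beside the points and a line at the geometric mean. The groups are apart for Rpl21, at 84.6 to 257 CPM against 558 to 830.5 CPM, while Rpl38, Rps25, Rpl13a and Rpl3l each have a single high tumour and Rpl35a is spread widely within both groups.

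The tumours differed more among themselves than the groups did. In AAV-delta-mut-p53 4 the members were high together: 54 of 85 reached their highest level there and 0 their lowest, and the median member was 0.78 (log2) above its own median over the tumours. In AAV-delta-mut-p53 2, the tumour with high muscle and stromal markers, 33 members were at their lowest and the median member was 0.39 below. The other 7 tumours had medians between -0.02 and 0.15. Among the 73 members with a mean of at least 50 CPM, 67.1% were highest in AAV-delta-mut-p53 4, beside 8.14% of the 4571 other genes at that level. In AAV-delta-mut-p53 2 the 2 sets were nearer to each other, with 41.1% of these members and 33.1% of the other genes at their lowest. The part of its muscle, fibroblast, leukocyte and adipocyte RNA, and of its low luminal and proliferation markers, in these member levels was not tested.

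AAV-delta-mut-p53 4 was less unusual in the other genes of translation. Against their own medians over the tumours, messenger RNAs known to carry a TOP element outside the ribosomal proteins were 0.26 (log2) higher there, initiation and elongation factors 0.04, mitochondrial ribosomal proteins 0.23, and ribosome assembly and RNA polymerase I genes 0.35. All 4 values are below the 0.78 of the cytosolic ribosomal proteins. In AAV-delta-mut-p53 2 the same 4 lists were 0.69, 0.51, 0.57 and 0.76 lower, each further down than the 0.39 of the members. The abundant non-coding RNAs Rn7sk, Rmrp, Rpph1, Malat1 and Neat1 summed to 108400 CPM in AAV-delta-mut-p53 4, against 35760 to 74830 CPM in the other 5 tumours of its group and 55080 to 112100 CPM in AAV-Control tumours. Its basal markers summed to 3027 CPM, against 102 to 1586 CPM in the other 5 and 1407 to 3706 CPM in AAV-Control tumours. Both were the highest of its group, and their part in its member levels was not tested.

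**Figure D3:**
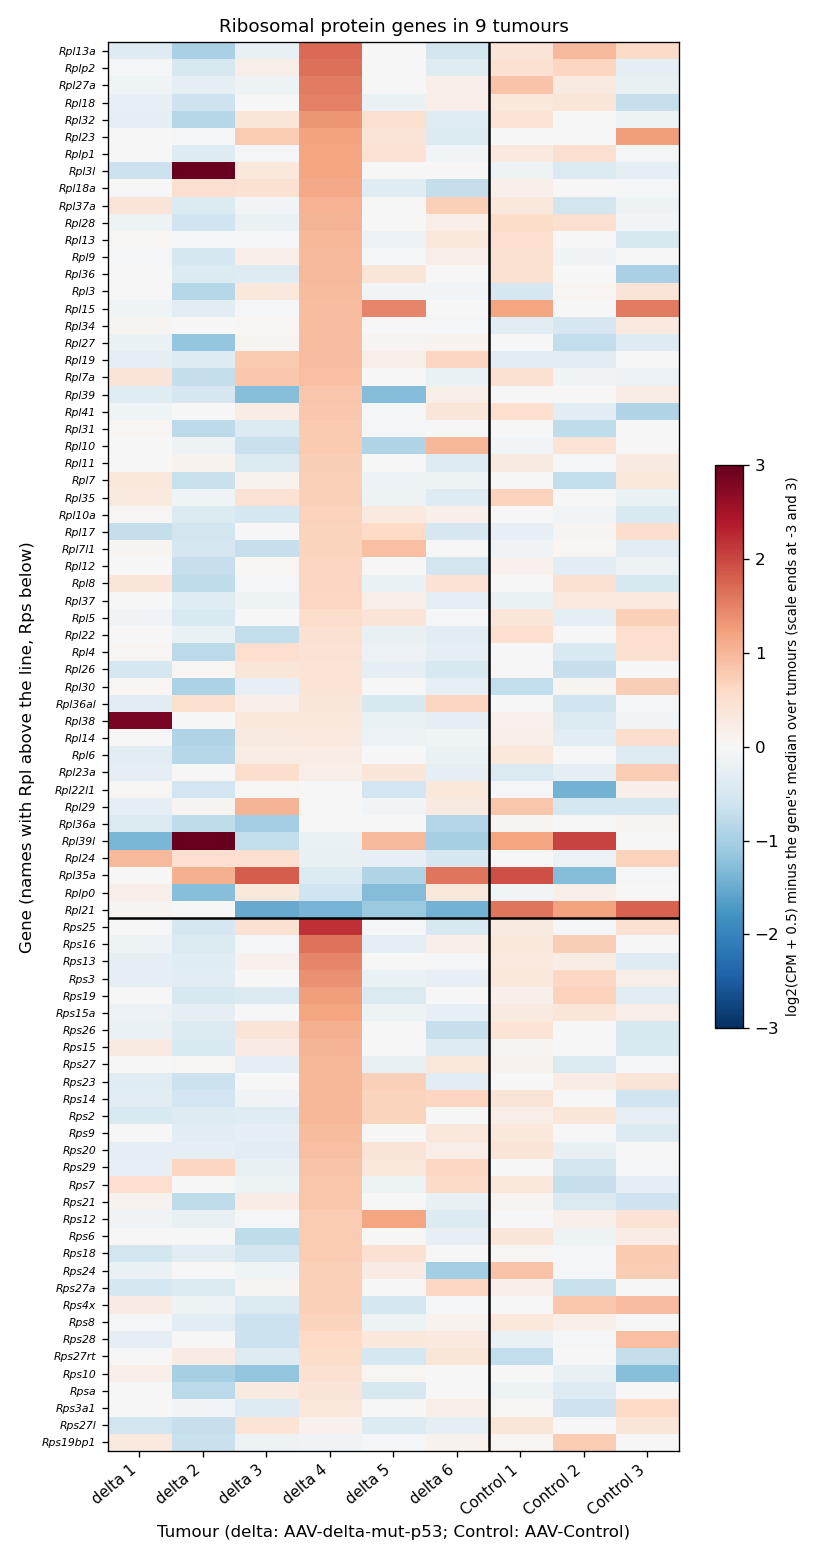
Each row is a member (a few are not drawn) and each column a tumour, AAV-delta-mut-p53 1 to 6 left of the line and AAV-Control 1 to 3 right of it; colour gives log2(CPM + 0.5) minus the gene's median over the 9 tumours. The column of AAV-delta-mut-p53 4 is red for most genes (54 of 85 at their highest), and Rpl21 is the row that is red in the 3 AAV-Control tumours and blue or pale in the AAV-delta-mut-p53 tumours.

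The excess in AAV-delta-mut-p53 4 was largest for the members on chromosome 7. Of the 80 members that averaged 5 CPM or more, 14 lie there, among them Rps3, Rps9, Rps16, Rps19, Rpl13a and Rplp2. Their levels were a median of 1.48 (log2) above the median of the other 8 tumours, from 0.95 for Rps9 to 1.80 for Rpl13a, and 13 of 14 were over 1. The 66 members on other chromosomes were a median of 0.78 above, and 17 of them (25.8%) were over 1. The other protein-coding genes of chromosome 7 were higher in this tumour too, by a median of 0.53 over 843 genes, of which 17.1% were over 1. The 10807 other genes on other chromosomes had a median of -0.001, and 7.09% were over 1. Chromosome 7 was also high in AAV-Control 2, where its other genes had a median of 0.485 and 16.8% of them were over 1. The 14 members there had a median of 0.48. So both the members and chromosome 7 stood high in AAV-delta-mut-p53 4, and members on chromosome 7 stood highest. These are descriptions of a tumour picked for its levels, with no test.

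Rps3, a protein at the messenger RNA entry of the small subunit, shows the pattern. It had 843, 818, 1017, 2646, 885 and 851 CPM in AAV-delta-mut-p53 1 to 6 and 1270, 1572 and 1148 CPM in AAV-Control 1 to 3. Its log2 fold change over all tumours was -0.18 (SE 0.44), and the groups overlapped. Without AAV-delta-mut-p53 4, every AAV-delta-mut-p53 value would lie below every AAV-Control value, but that tumour was picked for its levels. How many of all genes would separate in this way was not counted. Rplp2, a protein of the stalk that recruits elongation factors, had 377, 281, 450, 1248, 395 and 309.5 CPM in AAV-delta-mut-p53 1 to 6 and 546, 616 and 324 CPM in AAV-Control 1 to 3. Rps19, mutated in Diamond-Blackfan anaemia in humans, had 602 CPM in AAV-delta-mut-p53 4 and 178 to 254 CPM in the other 5 tumours of the group, against 198 to 404 CPM in AAV-Control tumours. Rpl13a, which in human cells can leave the ribosome to repress inflammatory messenger RNAs, had 146 CPM in AAV-delta-mut-p53 4 and 22.7 to 45.0 CPM in the other 5, against 58.6 to 88.8 CPM in AAV-Control tumours. Its log2 fold change was -0.44 (SE 0.54) over all tumours and -1.05 (SE 0.30, edgeR quasi-likelihood test, unadjusted p = 0.00578, FDR = 0.672) without AAV-delta-mut-p53 4. As a share of all member counts, the 14 genes of chromosome 7 made up 12.6%, 15.3%, 13.2%, 21.4%, 13.5% and 15.1% in AAV-delta-mut-p53 1 to 6, and 15.8%, 19.8% and 12.4% in AAV-Control 1 to 3. The groups overlap, and AAV-Control 2 came near to AAV-delta-mut-p53 4.

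**Figure D4:**
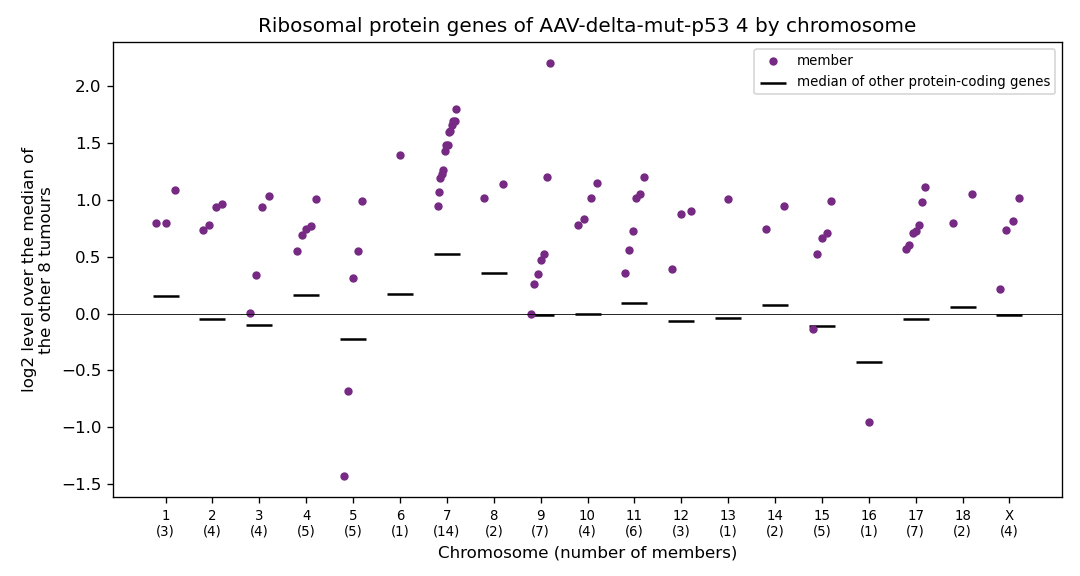
Each point is a member with a mean of at least 5 CPM, by chromosome (number of members in brackets); the vertical axis is its log2 level in AAV-delta-mut-p53 4 over its median in the other 8 tumours, and the bars are medians of the other protein-coding genes of that chromosome. The 14 members on chromosome 7 lie between 0.95 and 1.80 with the bar at 0.53, and Rps25 on chromosome 9 is the highest point at 2.21.

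A few members were far from their usual level in a single tumour, some of them with their neighbours on the chromosome. Over 765 combinations of a member and a tumour, 77 (10.1%) were more than 1 (log2) from the median of the other tumours, in either direction. For members averaging 5 CPM or more the share was 9.31%, below the 17.5% of the 11650 other protein-coding genes at that level, so members as a set did not stand out in this way. In 3 of these the median of the 20 nearest protein-coding genes was also more than 1 away in the same direction. They were Rpl38 in AAV-delta-mut-p53 1, Rps25 in AAV-delta-mut-p53 4 and Rps12 in AAV-delta-mut-p53 5.

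Rpl38, a large-subunit protein needed in mouse embryos for the translation of Hox messenger RNAs, had 1242 CPM in AAV-delta-mut-p53 1. The other 5 tumours of the group had 142 to 215 CPM, and AAV-Control 1 to 3 had 188, 128 and 163 CPM. The high tumour was 2.89 (log2) above the median of the others, and the other 8 overlapped. Of the 20 neighbours of Rpl38 on chromosome 11, 13 were more than 1 above their median in the other tumours, with a median of 1.52. Ttyh2, 27.8 kb away, had 209 CPM there, against a highest value of 83.2 CPM elsewhere, and Slc9a3r1, 502 kb away, had 634 CPM, against at most 141.5 CPM. Neighbours that did not follow included Abca5 (-1.41), Kcnj2 (-0.90), Cd300ld (-0.73) and Cd300a (-0.65), while Cd300lf was 1.19 above. Without AAV-delta-mut-p53 1 the fold change of Rpl38 was its lowest of all alternatives, at 0.18 on the log2 scale, and with it 1.16 (SE 0.75, edgeR quasi-likelihood test, FDR = 0.705).

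Rps25, a small-subunit protein used by several viral internal ribosome entry sites, had 1705 CPM in AAV-delta-mut-p53 4. The other 5 tumours of the group had 264 to 518 CPM, and AAV-Control 1 to 3 had 449, 364 and 514 CPM. Of its 20 neighbours on chromosome 9, all within 638 kb, 15 were more than 1 above their median in the other tumours, with a median of 1.23. Trappc4, 3.1 kb away, had 49.5 CPM there, against at most 27.9 CPM elsewhere, and H2afx, 73.4 kb away, had 121 CPM, against at most 53.1 CPM. Rps12 was highest in AAV-delta-mut-p53 5, at 780 CPM, against 258 to 583 CPM in the other 5 tumours of its group and 344, 384 and 467 CPM in AAV-Control 1 to 3. The median of its 20 neighbours was 1.15 above that of the other tumours, and 10 of them were over 1. Copy number was not measured here.

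**Figure D5:**
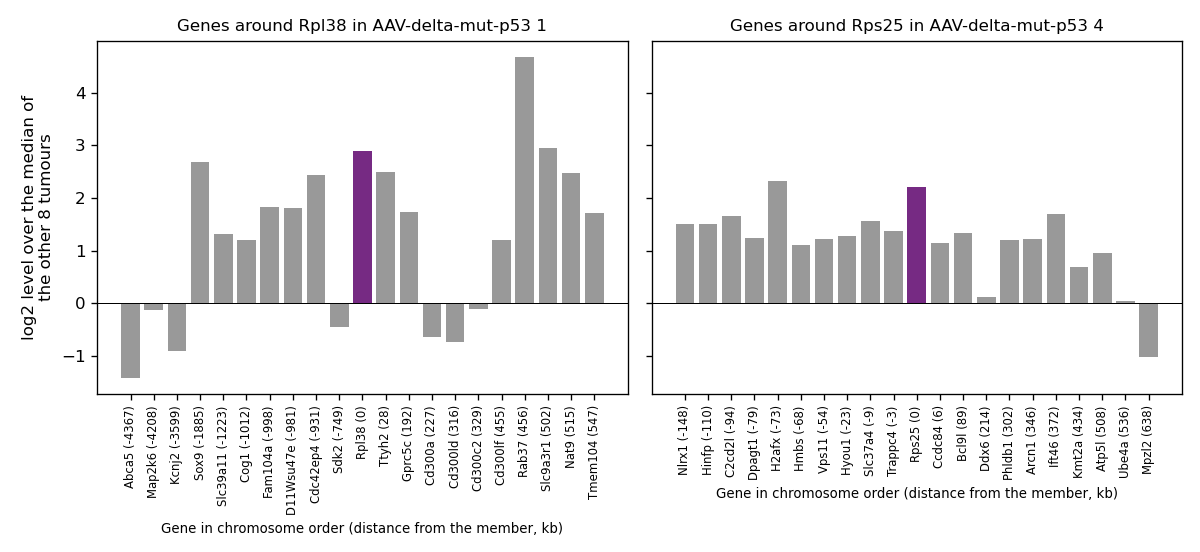
Bars give the log2 level in 1 tumour over the median of the other 8 tumours for Rpl38 in AAV-delta-mut-p53 1 (left) and Rps25 in AAV-delta-mut-p53 4 (right), in purple, and for 10 protein-coding genes on each side, in grey, in chromosome order with distances in kb. Of the 20 neighbours, 13 are over 1 around Rpl38 and 15 around Rps25.

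The proportions among members varied somewhat less than their levels. Each member's log2 CPM was set against the median of the members of the same tumour, and the SD of that difference over the 9 tumours was smallest for Rpl9 (0.16), Rps9 (0.19), Rpl12 (0.22), Rpl13 (0.22) and Rps21 (0.24). Rpl9, at the base of the stalk, had 194, 137, 227, 393, 196 and 228 CPM in AAV-delta-mut-p53 1 to 6 and 273, 184 and 199 CPM in AAV-Control 1 to 3, which follows the high AAV-delta-mut-p53 4 and the low AAV-delta-mut-p53 2 of the whole set. The SD was largest for Rpl3l (1.88), Rpl39l (1.64), Rpl21 (1.47), Rpl35a (1.27) and Rpl38 (1.0). Over the 73 members with a mean of at least 50 CPM its median was 0.40, and the SD of log2 CPM itself had a median of 0.51, beside 0.52 for 4571 other genes.

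Rpl35a, a large-subunit protein and a Diamond-Blackfan anaemia gene in humans, varied without regard to the groups. It had 39.8, 84.5, 141, 29.8, 20.9 and 122 CPM in AAV-delta-mut-p53 1 to 6 and 154, 15.9 and 38.8 CPM in AAV-Control 1 to 3. High and low tumours were found in both groups, a 9.65-fold range, and the log2 fold change was 0.07 (SE 0.76). In the 5 tumours where Rpl35a was furthest from its median in the others, its 20 neighbours moved the same way by less. Rpl35a stood 1.95 above in AAV-Control 1 with its neighbours at a median of 0.17, 1.83 above in AAV-delta-mut-p53 3 with 0.62, and 1.62 above in AAV-delta-mut-p53 6 with 0.06. It stood at -1.45 in AAV-delta-mut-p53 5 with its neighbours at -0.46, and at -1.83 in AAV-Control 2 with -0.31. Elsewhere Rpl35a and its neighbours mostly went opposite ways. They stood at 1.09 and -0.23 in AAV-delta-mut-p53 2, at -0.57 and 0.41 in AAV-Control 3, and at -0.52 and 0.365 in AAV-delta-mut-p53 1. In AAV-delta-mut-p53 4 both were lower, at -0.95 and -0.57. In its coding sequence 82.2% of words of 50 bases also occur in other genes, 19 of them pseudogenes.

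The stalk protein Rplp0, often used as a reference gene, had 1928, 688, 2102, 1116, 682 and 2111 CPM in AAV-delta-mut-p53 1 to 6 and 1591, 1905 and 1678 CPM in AAV-Control 1 to 3. It was not high in AAV-delta-mut-p53 4. The AAV-delta-mut-p53 tumours lay on both sides of the AAV-Control range, and the log2 fold change was -0.26 (SE 0.44). Its partner Rplp1 had 454, 349, 444, 1031, 618 and 432 CPM in AAV-delta-mut-p53 1 to 6 and 553, 630 and 435 CPM in AAV-Control 1 to 3, with AAV-delta-mut-p53 4 highest.

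Rpl5 and Rpl11, which with 5S RNA form the particle that binds MDM2, did not differ beyond their spread. Rpl5 averaged 87.9 ± 22.1 CPM in AAV-delta-mut-p53 tumours (SD, n = 6) and 104 ± 35.0 CPM in AAV-Control tumours (SD, n = 3), and Rpl11 averaged 77.1 ± 24.6 CPM in AAV-delta-mut-p53 tumours and 82.9 ± 10.3 CPM in AAV-Control tumours. Rpl23 and Rpl26, which bind MDM2 and the Trp53 messenger RNA, had log2 fold changes of -0.13 (SE 0.44) and 0.17 (SE 0.33). Mdm2 itself averaged 82.7 ± 16.5 CPM in AAV-delta-mut-p53 tumours, against 90.9, 103 and 561 CPM in AAV-Control 1 to 3, with a log2 fold change of -1.61 (SE 0.51) over all tumours and -0.24 (SE 0.30) without AAV-Control 3.

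Rpsa, the laminin-binding small-subunit protein, averaged 1908 ± 558 CPM in AAV-delta-mut-p53 tumours (SD, n = 6) and 1741 ± 231 CPM in AAV-Control tumours (SD, n = 3). Rps6, the substrate of the S6 kinases, averaged 62.3 ± 22.5 CPM after AAV-delta-mut-p53 and 68.1 ± 11.8 CPM after AAV-Control. Rps27a, which is made as a fusion with ubiquitin, averaged 153 ± 54.7 CPM after AAV-delta-mut-p53 and 125 ± 35.0 CPM after AAV-Control. None of these 3 differed by more than the SD of the AAV-delta-mut-p53 tumours. Among the members lower after AAV-delta-mut-p53 with the next smallest p after Rpl21, Rpl36a had a log2 fold change of -0.52 (SE 0.30), Rps4x -0.61 (SE 0.36), Rpl22 -0.49 (SE 0.30), Rps27l -0.43 (SE 0.30) and Rps24 -0.56 (SE 0.39). Among the higher ones after Rpl3l, Rpl19 had 0.61 (SE 0.35), Rps29 0.58 (SE 0.34), Rpl38 1.16 (SE 0.75), Rps27rt 0.83 (SE 0.56) and Rps7 0.48 (SE 0.34). With all tumours, 0 of these 10 passed an unadjusted p of 0.05 in edgeR's test, and the groups overlapped for each. When AAV-delta-mut-p53 2 was left out, Rpl19 passed it at 0.74 (SE 0.32, edgeR quasi-likelihood test, unadjusted p = 0.0433). When AAV-delta-mut-p53 4 was left out, Rps4x passed it at -0.79 (SE 0.33, edgeR quasi-likelihood test, unadjusted p = 0.0382). Over the 20 nearest protein-coding genes, chosen as for Rpl21, the median log2 fold change was -0.72 around Rps4x and -0.63 around Rpl36a. Around Rpl22, Rps24, Rps27l and Rpl38 it was -0.23, -0.38, -0.04 and 1.04. The part of these regions in the member levels was not tested.

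Levels per length differed widely between members. CPM per kilobase of reference transcript, averaged over the 9 tumours, were highest for Rps24 (2831), Rpl32 (1970), Rps26 (1364), Rpl4 (1329), Rplp0 (1129) and Rplp1 (1101). They were lowest among the members tested for Rpl24 (1.31), Rps27rt (2.76), Rpl39l (3.35) and Rpl3l (3.97). This order depends on the transcript chosen, since some hold long non-coding parts. The transcript of Rps20 has 3706 bases with 357 coding bases, and that of Rpsa has 1938 with 885. Rpl24 and Rpl23a (5.93) code for core proteins of the large subunit, yet all 50-base words of their coding sequences occur in other annotated genes. For Rpl24, 47.0% of the exon bases also overlap Gm28037 on the same strand. Over all 86 members the median share of coding 50-base words found in other genes was 90.8%, and 55.97% over the whole transcript. The share over the whole transcript had a Spearman correlation of -0.11 with the level per kilobase (n = 86 genes, which are not independent and share libraries). Rows named as pseudogenes of members summed to 0.663%, 0.896%, 0.473%, 0.413%, 0.634% and 0.922% of the member counts in AAV-delta-mut-p53 1 to 6, and 0.633%, 0.590% and 0.368% in AAV-Control 1 to 3. For Rpl23a the pseudogene rows came to 74.1% of its own counts, the nearest of 59 members with such rows.

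Paralogues of members were compared by their share of the counts of the pair. Rpl3l, the striated muscle form of Rpl3, had 32.4 CPM in AAV-delta-mut-p53 2, the tumour with muscle markers, and 0.135 to 1.73 CPM in the other 5 tumours of the group, against 0.387, 0.233 and 0.317 CPM in AAV-Control 1 to 3. It made up 16.4% of the pair in AAV-delta-mut-p53 2 and at most 0.296% in any other tumour. Its log2 fold change was 4.24 (SE 1.87, edgeR quasi-likelihood test, unadjusted p = 0.0456, FDR = 0.677), and 1.18 (unadjusted p = 0.153) without AAV-delta-mut-p53 2. Rpl39l, the form of Rpl39 known from male germ cells in mice, was also highest in that tumour, at 11.8 CPM and 12.6% of the pair. Its next highest level was 5.27 CPM, in AAV-Control 2.

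Rps27l, a paralogue of Rps27 that p53 activates, made up 24.9%, 22.5%, 44.1%, 20.9%, 29.8% and 24.1% of the pair in AAV-delta-mut-p53 1 to 6, against 36.6%, 39.7% and 39.3% in AAV-Control 1 to 3. All but AAV-delta-mut-p53 3 were below the AAV-Control tumours. The mean was 27.7% ± 8.56 after AAV-delta-mut-p53 (SD, n = 6) and 38.6% ± 1.71 after AAV-Control (SD, n = 3), and the difference was not tested. Rpl36al made up 60.8% ± 12.8 of its pair with Rpl36a in AAV-delta-mut-p53 tumours and 45.2% ± 4.87 in AAV-Control tumours. Rpl22l1 made up 3.75% ± 1.44 of its pair with Rpl22 in AAV-delta-mut-p53 tumours and 2.11% ± 0.785 in AAV-Control tumours. In both pairs the groups overlapped. Rps4l, annotated as a transcribed processed pseudogene in the release used, had 26.2 CPM in AAV-delta-mut-p53 3 and at most 4.64 CPM elsewhere.

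Other genes of translation gave few differences, and 0 of them passed the FDR in edgeR's test. Of 26 TOP messenger RNAs outside the ribosomal proteins, 24 initiation and elongation factors and 77 tested mitochondrial ribosomal proteins, 0 passed an unadjusted p of 0.05 in either direction. Their median log2 fold changes were -0.18, -0.03 and 0.07, beside 0.09 over all genes tested. Of 42 genes of ribosome assembly and RNA polymerase I, 3 were lower at that p, Rrp1, Dkc1 and Polr1d, and 0 were higher, beside 3.26% of all genes lower and 3.82% higher. Rrp1, a factor of large-subunit assembly, had 87.6 to 275 CPM in AAV-delta-mut-p53 tumours, against 159, 206.5 and 896 CPM in AAV-Control 1 to 3, with a log2 fold change of -1.40 (SE 0.53) over all tumours and -0.20 (SE 0.42) without AAV-Control 3. Dkc1, the pseudouridine synthase of ribosomal RNA, had 108, 59.0, 96.0, 130.1, 90.7 and 50.3 CPM in AAV-delta-mut-p53 1 to 6, against 113, 163 and 202 CPM in AAV-Control 1 to 3. The groups overlapped through AAV-delta-mut-p53 4, and the log2 fold change was -0.84 (SE 0.34), or -0.64 (SE 0.40, unadjusted p = 0.141 in edgeR's test) without AAV-Control 3. Eif1, which guards start codon choice, was higher in every AAV-delta-mut-p53 tumour (36.5 to 51.4 CPM) than in every AAV-Control tumour (31.1 to 32.4 CPM), with a log2 fold change of 0.44 (SE 0.24, edgeR quasi-likelihood test, unadjusted p = 0.0972). Such a separation held for 1 of the 24 factors and for 1.47% of all genes tested.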

How the data were processed

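Total RNA of 9 tumours was made into libraries that keep strand, per the labels' protocols. The authors deposited a table of whole-number counts, genes by tumours. The submitters' processing notes list STAR 2.6.0b, DESeq2 and GRCm38. The counter, its strand setting, its treatment of multiply mapping reads and the annotation release were not given in the sources used here, and reads of members with near-identical copies may be split or lost. Columns were tied to samples by title, and 0 columns were left over. Symbols were found for 49326 identifiers, and 43749 matched GENCODE release 21 with their version.

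Counts were scaled by library size and TMM factors (CPM). Genes kept by filterByExpr with a minimum count of 10 entered edgeR 4.0.16 under R 4.3.3 (quasi-likelihood test, 2-sided, no covariate, Benjamini-Hochberg over 19606 genes, FDR of 0.05). DESeq2 1.42.0 and limma 3.58.1 voom were alternatives. The edgeR fit was tested on simulated counts. Inside each group no libraries were alike within sampling noise, and pairs across the groups were not compared. Fold changes have AAV-delta-mut-p53 as numerator.

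The members and lists were chosen with earlier results of these data known, so no list was tested as a whole. Named members were Rpl21, the 6 of smallest p in each direction, the 6 highest and 4 lowest per kilobase, the 5 most and 5 least variable against the member median, and members fixed by role. Others, such as Rps25, Rps12 and the chromosome 7 members, were chosen after their values were seen. Reference transcripts were protein-coding, in the CCDS and basic sets, with the lowest number, and words of 50 bases were searched on both strands of all other genes' transcripts. The list of promoters is from RefSeq. A few members are counted but not reported by name here. Python 3.11.15 was used for tables.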

Additional observations from a re-analysis of the deposited data

Results flagged for a closer look

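In the 6 AAV-delta-mut-p53 tumours, 16 of 67 groups of values checked had a single tumour far from the rest (Dixon's criterion at the 95% level), where chance gives about 1 in 20. The groups share tumours and are not independent. Some of the genes checked were named for a large spread or a small p in these same data. That choice can raise the count, so it cannot be set against that rate. In 8 of the 16 the distant tumour was AAV-delta-mut-p53 4, which was highest in Rpl11 (123 CPM), Rpl13 (87.0 CPM), Rpl13a (146 CPM), Rpl9 (393 CPM), Rplp2 (1248 CPM), Rps19 (602 CPM), Rps3 (2646 CPM) and in the summed share of the members (4.87%). AAV-delta-mut-p53 2, the tumour with muscle markers, was highest in Rpl3l (32.4 CPM, 16.4% of its pair with Rpl3) and in Rpl39l (11.8 CPM, 12.6% of its pair with Rpl39), and lowest in the initiation factor Eif6 (30.7 CPM). AAV-delta-mut-p53 1 was highest in Rpl38 (1242 CPM) and in Mrps7 (200.4 CPM), a mitochondrial ribosomal protein. AAV-delta-mut-p53 3 was highest in the share of Rps4l (5.10% of its pair with Rps4x). No cause was tested.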

How the results depend on the processing

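The count of 0 genes at the FDR threshold under edgeR held under every scaling, filter and left-out tumour tried, and DESeq2 called 105 genes, 1 of them a member. The count of members lower at an unadjusted p under 0.05 was 1 (1.18%, beside 3.26% of all genes). It was 2 under limma voom with quality weights and 1 to 3 with a tumour left out (3 without AAV-delta-mut-p53 4). The share over all genes in each alternative is not given here, so a change in these counts is not read further. The count higher was 1 (1.18%, beside 3.82% of all genes), with 0 under DESeq2, 0 under a filter of 10 CPM in 3 tumours and 0 to 1 with a tumour left out (0 without any of the AAV-Control tumours). The higher member was Rpl3l, and in these settings it was not past that p or not tested; under limma voom and without AAV-delta-mut-p53 2 it was not past it either, and the 1 higher member was Rpl19. The other 258 values of counts, medians and shares kept within the spread between tumours or within 1.5 times the count. The fold change of Rpl21 ran from -2.51 to -2.15 (log2) over 19 alternatives. Of 44 named members with a fold change, 24 kept its sign under all 19. The Rpl39l fold change was -0.21 over all tumours, -2.04 without AAV-delta-mut-p53 2 and 0.50 without AAV-Control 2. With words of 100 bases in place of 50, added after the data were seen, the median share found in other genes was 42.2% in place of 55.97%. No paired analysis was possible because the labels give no replicate numbers and the numbers used here follow the order of the samples. Depth limits Rpl24, Rps27rt, Rpl3l, Rpl39l and Rpl10l most, and intervals from counting do not cover the spread between tumours.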

Other observations

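The 4 members on the X chromosome, Rpl10, Rpl36a, Rpl39 and Rps4x, had log2 fold changes of 0.04, -0.52, -0.28 and -0.61. In AAV-Control 2 the 376 other protein-coding genes of the X chromosome were a median of 0.998 (log2) above the other tumours and 49.2% of them were over 1, while the 4 members were a median of 0.34 above and 0 of them were over 1. On chromosome 14, Rpl15 and Rps24 were higher in AAV-Control 1 and 3, by medians of 1.04 and 1.18, while the other 397 genes of that chromosome had medians of -0.09 and -0.14. Rpl15 had 46.5, 41.1, 49.3, 98.6, 141 and 50.5 CPM in AAV-delta-mut-p53 1 to 6 and 118, 51.3 and 151 CPM in AAV-Control 1 to 3. These members were picked after their values were seen.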
